A study of Rattus norvegicus with 2 samples.

Results

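Transcripts of integrin and cadherin genes were read in 2 colonies, No.8 and No.4, each grown as a single colony from the rat glioma line C6, a common laboratory model of astrocytic brain tumours. The genes were those whose symbol is Itga, Itgb or Cdh followed by a number alone. This gave 40 genes of the 18166 with a symbol of their own on the array, namely 11 integrin alpha subunits, 7 integrin beta subunits and 22 cadherins. Each had 1 feature on the array. Total RNA from each colony was measured on 1 whole-transcript array. Both arrays carry the same protocol, growth in medium with 10% fetal bovine serum and exposure to 20 µM CHIR99021, an inhibitor of the kinase GSK3, together with 100 µM forskolin, an activator of adenylyl cyclase, over 35 days. Both titles nevertheless call the colony undifferentiated, and the labels do not settle whether the RNA was taken before or after the drugs. Each group is therefore 1 colony of 1 cell line on 1 array.

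Integrins are surface receptors made of 1 alpha and 1 beta chain, which link the extracellular matrix to the actin cytoskeleton, and the alpha chain largely sets which ligand is bound. Classical cadherins bind cadherins on neighbouring cells in the presence of calcium and are tied to actin through catenins. In glioma cells, laminin and collagen receptors and N-cadherin are among the adhesion molecules studied for migration and cell cohesion.

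With 1 array per colony no test was possible, and every difference below is a single measurement, the deposited log2 level in No.8 minus that in No.4. The floor was set at 4.33, the median over every feature and both arrays, and a gene with a level of at least that in either colony is said to be past it. Levels up to 5.67 may also lie near background: this olfactory receptor limit is the level below which 99% of the values of odorant receptor genes fell, and such genes are mostly silent outside the nose. A bulk array cannot tell fewer cells with a transcript apart from less transcript per cell. Levels of different genes come from different probes. They are set against the common floor and limit, and are not ranked against one another as amounts of transcript.

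Of the glial markers, Vim (12.60 in No.8 and 12.57 in No.4), Nes (9.94 and 9.54), S100b (8.46 and 8.24) and Sox2 (8.44 and 9.08) were well past the floor in both colonies. Gfap, the astrocytic filament gene, was at 5.17 in No.8 and 4.11 in No.4, and Olig2 was at 4.22 and 6.36. The astroglial genes Slc1a3 and Fabp7 were below the floor in both.

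Integrin Itga4 and N-cadherin, Cdh2, were the members past the floor that differed most between the colonies, and both were higher in No.8. A 2-fold or larger excess in No.8 was seen for 2 of the 18 members past the floor, and for 2.91% of the 11069 genes past it. None of the 18 was lower in No.8 by 2-fold, and 2.57% of the 11069 genes were. With so few members, these counts are a description and not a result about the families. By any amount, 9 of the 18 were higher and 9 lower in No.8, and 53.2% of all genes past the floor were higher. The median difference of the members past the floor was -0.02, against 0.04 over all genes past the floor.

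The promoter windows of 4 integrin genes are shown because these integrins had the largest differences past the floor in each direction: Itga4 and then Itga8, whose levels may lie near background, were higher in No.8, and Itga3 and then its partner Itgb1 were lower, both by less than 1.5-fold. Each window runs from 250 bases before to 50 bases after the RefSeq gene start, 5′ to 3′ on the gene's strand, in assembly GRCr8. Capitals mark matches, on either strand, to the cyclic AMP response element core TGACG, the Snail and ZEB E-box CAGGTG and the GC box GGGCGG. The full element TGACGTCA, which contains the core, and the TCF and LEF motif CTTTGAT were also searched.
Itga4, chr3:84569765-84570064, plus strand: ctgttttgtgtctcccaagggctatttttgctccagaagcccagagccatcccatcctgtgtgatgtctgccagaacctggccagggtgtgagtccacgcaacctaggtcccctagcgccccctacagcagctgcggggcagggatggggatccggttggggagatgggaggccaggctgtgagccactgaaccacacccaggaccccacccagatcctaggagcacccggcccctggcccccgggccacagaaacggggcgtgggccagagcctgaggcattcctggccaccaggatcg
Itga8, chr17:80410584-80410883, minus strand: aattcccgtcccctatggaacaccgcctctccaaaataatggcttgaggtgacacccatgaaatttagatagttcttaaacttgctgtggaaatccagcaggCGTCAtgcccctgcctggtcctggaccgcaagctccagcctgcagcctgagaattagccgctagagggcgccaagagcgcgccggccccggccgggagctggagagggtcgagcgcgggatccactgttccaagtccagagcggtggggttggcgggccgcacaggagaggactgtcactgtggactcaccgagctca
Itga3, chr10:80518852-80519151, minus strand: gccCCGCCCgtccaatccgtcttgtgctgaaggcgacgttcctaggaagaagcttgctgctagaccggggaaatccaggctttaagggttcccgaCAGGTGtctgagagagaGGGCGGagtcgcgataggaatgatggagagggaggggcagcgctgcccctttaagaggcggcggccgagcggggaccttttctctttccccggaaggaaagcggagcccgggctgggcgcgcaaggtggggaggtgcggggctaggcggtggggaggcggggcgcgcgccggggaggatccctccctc
Itgb1, chr19:73602027-73602326, plus strand: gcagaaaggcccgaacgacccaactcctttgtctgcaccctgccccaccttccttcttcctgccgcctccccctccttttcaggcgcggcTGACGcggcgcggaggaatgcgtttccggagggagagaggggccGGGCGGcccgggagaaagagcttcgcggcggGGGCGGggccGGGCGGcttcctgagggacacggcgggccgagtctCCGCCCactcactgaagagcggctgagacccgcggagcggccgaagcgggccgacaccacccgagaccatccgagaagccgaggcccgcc

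The Itga4 window, 64.7% G and C, held none of the 5 motifs. The Itga8 window held 1 response element core, with its first printed base at -148 from the gene start and on the opposite strand. The Itga3 window held 1 E-box at -155 and 2 GC boxes, and the Itgb1 window held 1 response element core at -160 and 4 GC boxes. Of all 33469 rat windows of this length, 21.2% held the core, 18.8% the E-box, 33.1% the GC box, 1.83% the full response element and 3.63% the TCF and LEF motif. Windows were found for 26 of the 40 members, and of these 5 held the core, 3 the E-box, 13 the GC box and 0 the full element or the TCF and LEF motif. No window was found for Cdh2 or Cdh13, the cadherins with the largest differences past the floor in each direction. A match describes these letters and no more.

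Among the integrin alpha chains, Itga4, which pairs with Itgb1 or Itgb7 and binds fibronectin and the vascular adhesion molecule Vcam1, had a level of 7.96 in No.8 and 5.30 in No.4. It was 6.31-fold higher in No.8, and 4.87-fold when the No.4 level is raised to 5.67, since that level lay between the floor and the olfactory receptor limit. Counting Itga4, 20 of the 11069 genes past the floor had a difference of this size or more in that direction. Itga9, the alpha chain closest to Itga4, was below the floor in both colonies, at 3.89 in No.8 and 3.80 in No.4.

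The laminin-binding alpha chains, a grouping made after their values were seen, had lower levels in No.8, each by less than 2-fold. By any amount, 45.5% of all genes past the floor were lower. Itga3, the alpha chain of a laminin receptor of epithelia and glioma, was at 10.54 in No.8 and 11.10 in No.4, a difference of -0.56. Itga6, which forms laminin receptors with Itgb1 and Itgb4 and is used as a marker of glioma stem cells, was at 10.53 in No.8 and 10.90 in No.4 (-0.38). Itga7, the laminin receptor chain of muscle, was at 7.30 in No.8 and 7.36 in No.4 (-0.06). All of these levels were above 5.67 in both colonies. A reduction of 1.5-fold or more in No.8 was found for 0 of the 13 integrins past the floor and for 7.93% of all genes past it.

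Of the collagen-binding alpha chains, Itga1 was past the floor and close in both colonies, at 10.37 in No.8 and 10.21 in No.4 (0.16). Itga2 was at 4.11 in No.8 and 2.86 in No.4. That difference of 1.25 lies wholly below the floor and was not counted. Itga10, the chain of cartilage, was at 4.32 in No.8 and 4.36 in No.4, on either side of the floor, and Itga11, a fibroblast collagen receptor chain, was at 3.92 and 3.57. Itga1 and Itga2 are neighbours on chromosome 2 with 0 protein-coding genes between them in the RefSeq order, so the gene with a level past the floor lay beside one without it.

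Of the alpha chains that bind the RGD sequence of matrix proteins, the fibronectin receptor chain Itga5 had almost the same level in both colonies, 7.62 in No.8 and 7.60 in No.4. Itga8, a receptor chain for nephronectin, was at 5.59 in No.8 and 4.83 in No.4, which is 1.70-fold higher in No.8. Both Itga8 levels were under 5.67, so counted from that limit no difference is left, and with an offset of 64 on the linear scale it was 0.28.

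**Figure D1:**
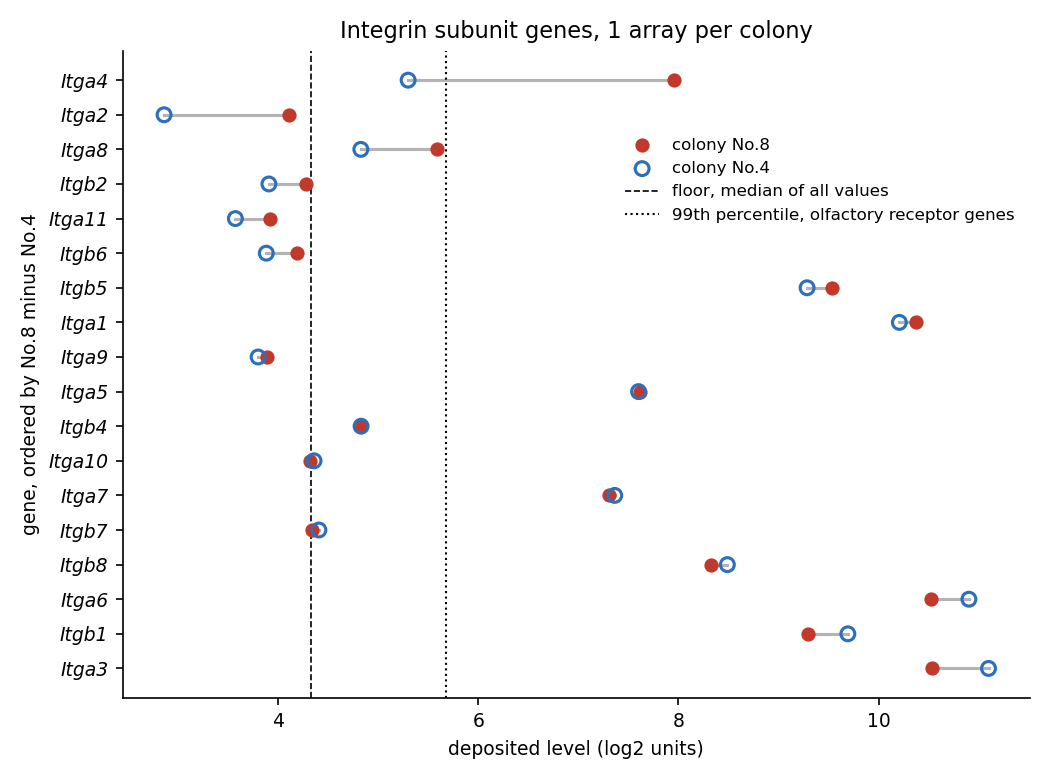
Deposited log2 levels (horizontal axis) of the 18 integrin subunit genes in colony No.8 (filled red) and colony No.4 (open blue), 1 array each, ordered by the difference; the dashed line is the floor of 4.33 and the dotted line the olfactory receptor limit of 5.67. Itga4 stands apart at 7.96 in No.8 and 5.30 in No.4, while the members at the lower end, Itga3, Itgb1 and Itga6, lie above 9 in both colonies with No.8 to the left.

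No beta chain differed by more than 0.40 in size. Itgb1, the common partner of most alpha chains, was at 9.30 in No.8 and 9.69 in No.4, a difference of -0.40. Of the chains that pair with the alpha V subunit, Itgb5, a vitronectin receptor chain, was at 9.53 in No.8 and 9.29 in No.4 (0.25). Itgb8, whose receptor activates latent TGF-beta, was at 8.32 in No.8 and 8.49 in No.4 (-0.16).

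Among the beta chains under 5.67 in both colonies, Itgb6, a TGF-beta-activating chain of epithelia, was below the floor, at 4.19 in No.8 and 3.88 in No.4. Itgb4, the hemidesmosome chain that pairs with Itga6, was at 4.83 in both colonies. Itgb7, a lymphocyte chain, was at 4.33 in No.8 and 4.41 in No.4, and Itgb2, the chain of leukocyte integrins, was below the floor at 4.28 in No.8 and 3.91 in No.4.

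Integrins act as pairs, so the pairs known from textbooks were read from both chains. Both subunits were measured for 17 of 24 listed pairs. Both were past the floor for 9 pairs in No.8 and 10 in No.4, and the pair that separated the counts was Itga10 with Itgb1, because Itga10 sat on the floor. With the limit at 5.67 the counts were 6 pairs in No.8 and 5 in No.4. The pairs past 5.67 in both colonies joined Itgb1 with Itga1, Itga3, Itga5, Itga6 and Itga7. Itga4 with Itgb1 was the further pair in No.8, where Itga4 exceeded the limit. A pair of transcripts shows neither a protein nor a receptor at the surface.

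The other integrin subunits gave low values. Itga2b, the platelet chain, was at 4.61 in No.8 and 4.28 in No.4. The leukocyte chains Itgal, Itgam, Itgax and Itgad were below the floor in both colonies. The alpha V gene Itgav and the lymphocyte chain Itgae, like Itgb3, are not analysed here.

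Cadherins were mostly below the floor. Past it were 5 of the 22 measured (22.7%), against 13 of the 18 integrins (72.2%) and 60.9% of all genes. Of these 5, Cdh2 and Cdh13 were above 5.67 in both colonies.

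Cdh2, N-cadherin, the classical cadherin of neural tissue and mesenchyme, was at 9.95 in No.8 and 8.41 in No.4. It was 2.90-fold higher in No.8, with both levels well above the olfactory receptor limit. Counting Cdh2, 119 of the 11069 genes past the floor had a difference of this size or more in that direction. The other type I cadherins were dim in both colonies. Cdh1, E-cadherin of epithelia, was at 3.79 in No.8 and 3.57 in No.4. Cdh3, P-cadherin, was at 4.85 in No.8 and 4.93 in No.4. Cdh4, R-cadherin of retina, and Cdh15, M-cadherin of muscle, were below the floor in both, with differences of -0.21 and 0.45. Cdh1 and Cdh3 lie next to each other on chromosome 19 in the RefSeq order.

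Cdh13, T-cadherin, which is held in the membrane by a lipid anchor and lacks the catenin-binding tail, went the other way. It was at 7.71 in No.8 and 8.36 in No.4, a difference of -0.65, or 1.57-fold lower in No.8. Of the 18 members past the floor it was the 1 lower by 1.5-fold or more in No.8 (7.93% of genes). In the opposite direction 3 members, Itga4, Cdh2 and Itga8, reached 1.5-fold (9.87% of genes), Itga8 with both levels under 5.67.

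Type II cadherins, which include the endothelial Cdh5 and many brain cadherins that mark neuronal groups, were mostly dim. Of the 12 measured, 11 were below the floor in both colonies, with levels from 2.16 to 4.12 and differences from -0.03 to 0.29. The exception was Cdh24, at 5.58 in No.8 and 5.35 in No.4, still under 5.67. Cdh11, a mesenchymal cadherin also found in glioma, was at 3.86 in No.8 and 3.71 in No.4. Cdh19, a cadherin of Schwann cell precursors, was at 2.76 in No.8 and 2.59 in No.4.

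The remaining cadherins were also dim. Cdh16, the kidney cadherin, was at 4.33 in No.8 and 4.26 in No.4, and counts as past the floor by a narrow margin. Cdh17 of liver and intestine, Cdh23 of the hair-cell tip link and Cdh26 were below the floor, with levels from 3.32 to 3.60.

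Cdh7 and Cdh20 had identical deposited values in the 2 colonies, 2.84 and 3.28. Exact ties of this kind occurred for 490 of the 7097 genes below the floor and for 145 of those past it. Over the 22 members below the floor, 16 were higher in No.8, 4 lower and 2 tied, where 50.7% of all genes below the floor were higher. The differences of these 22 members ran from -0.21 to 1.25, with a median of 0.16, against 0.01 over all genes below the floor. All of these levels lay below the floor and cannot be told from background, so the count shows no tendency of the members.

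**Figure D2:**
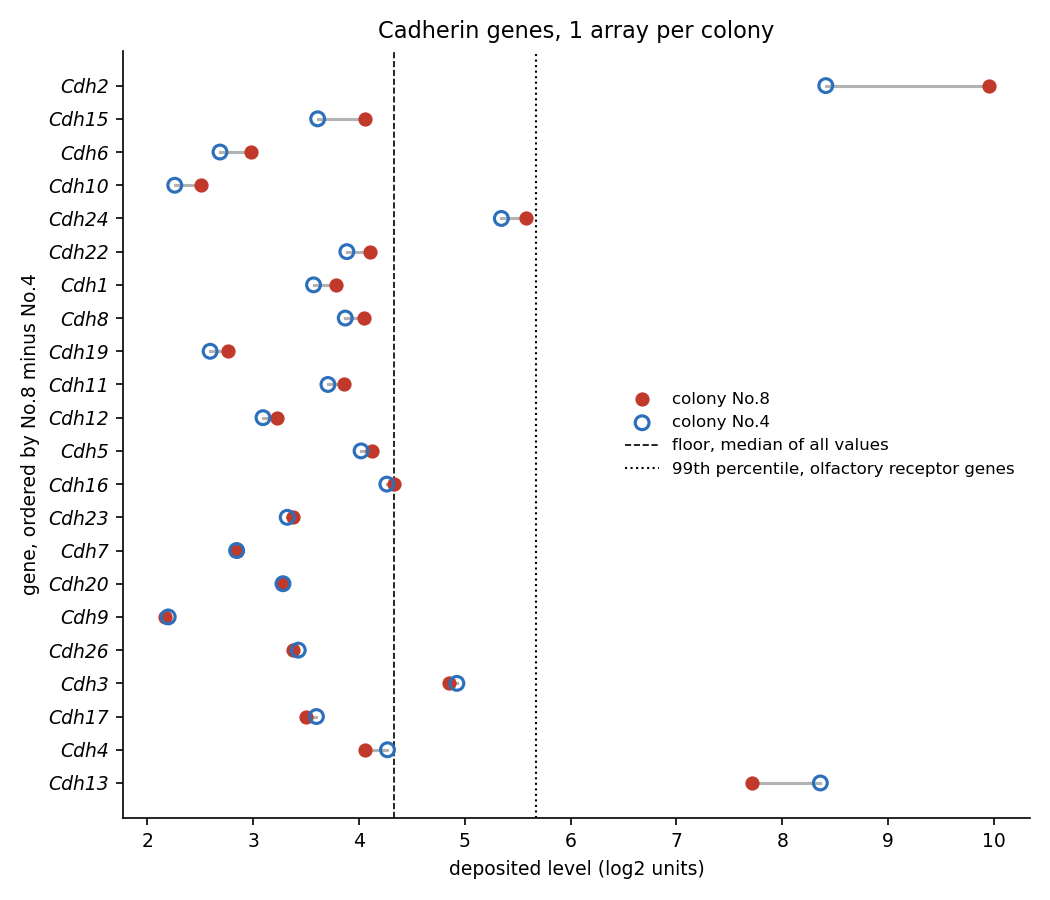
Deposited log2 levels (horizontal axis) of the 22 cadherin genes in colony No.8 (filled red) and colony No.4 (open blue), 1 array each, ordered by the difference; the dashed line is the floor of 4.33 and the dotted line the olfactory receptor limit of 5.67. Cdh2 at the top and Cdh13 at the bottom are the members above the dotted line, and 17 members lie below the floor in both colonies.

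**Figure D3:**
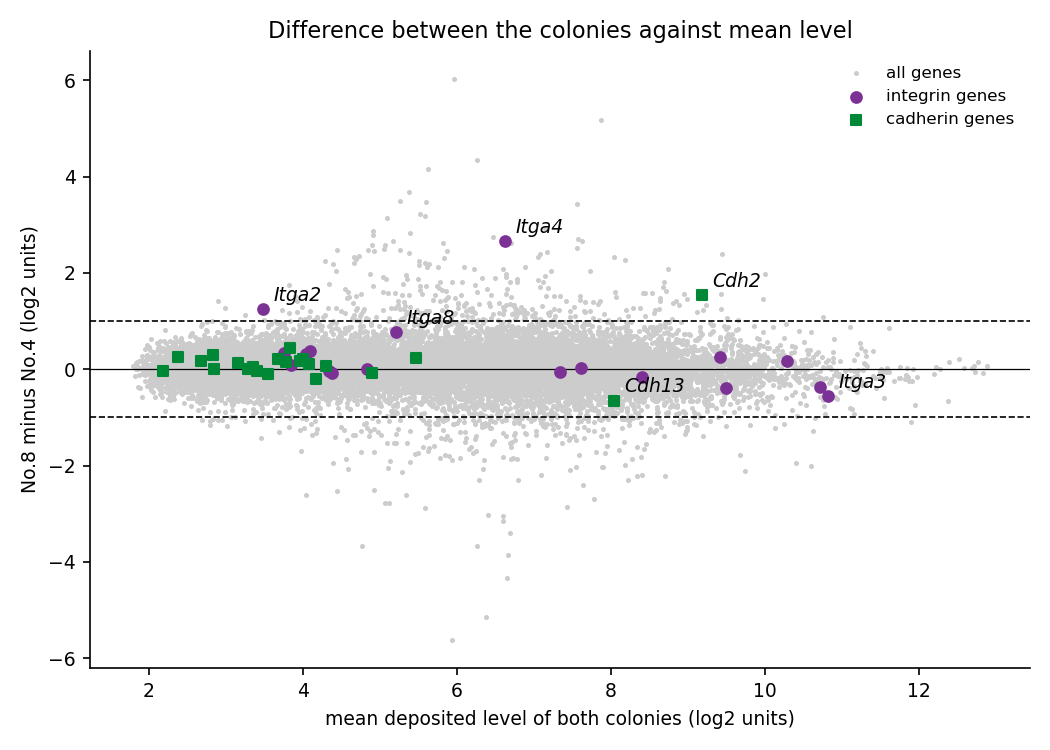
Difference, No.8 minus No.4, against the mean level of both colonies (both axes in log2 units) for all 18166 genes (grey), integrins (purple circles) and cadherins (green squares); dashed lines mark 2-fold. Itga4 (2.66) and Cdh2 (1.54) lie outside the main cloud, Itga2 (1.25) passes the line at a dim level, and the bright Itga3 and Cdh13 lie below 0.

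Of the 18 members past the floor, 9 were within 0.2 of equal levels, and 39.8% of all genes past the floor were. With so few members this count is a description. Among the 9, Itga10, Itgb4, Itgb7, Cdh3 and Cdh16 had both levels under 5.67, which may lie near background. The median size of the difference was 0.20 for the members and 0.26 for all genes past the floor. The 13 integrins had a median difference of -0.04 and the 5 cadherins 0.07.

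Of the 20 integrin ligands past the floor, 17 were higher in No.8, with a median difference of 0.30, beside 53.2% and 0.04 for all genes past it. Of these 17, Col1a2, Ibsp and Madcam1 had both levels under 5.67, which may lie near background. The list was chosen with earlier results known, so the count is a description. The largest differences were those of Postn, periostin, at 10.45 in No.8 and 5.28 in No.4, and Col1a1, a collagen I chain, at 10.64 and 8.25. Counted from 5.67, Postn was 27.5-fold higher in No.8. Fn1, fibronectin, which both Itga4 and Itga5 bind, had a level of 12.04 in No.8 and 11.17 in No.4 and was 1.82-fold higher in No.8. The basement membrane collagens Col4a1 and Col4a2 differed by 0.95 and 0.83, and Col4a1 was 1.73-fold higher in No.8 counted from 5.67. Vcam1, a cell-bound ligand of Itga4, named after its values were seen, was below the floor, at 4.04 in No.8 and 3.47 in No.4.

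Of the 30 genes of integrin activation and the adhesion complex past the floor, 18 were higher and 12 lower in No.8, and 1 was at least 2-fold higher and 2 at least 2-fold lower, beside 2.91% and 2.57% of all genes past the floor. Tns1, tensin, which binds beta tails and actin, had 7.64 in No.8 and 5.56 in No.4. It was 4.23-fold higher in No.8, or 3.91-fold counted from 5.67. Fermt1, an epithelial kindlin that activates integrins, was at 4.61 in No.8 and 5.85 in No.4, which is 2.37-fold lower but 1.13-fold counted from 5.67. Parvb, a parvin of the integrin-linked kinase complex, had a level of 6.66 in No.8 and 7.80 in No.4, and was lower in No.8 by 2.19-fold. The next largest were Flna (0.82), an actin crosslinker, Tln2 (0.64), a talin, and Tns3 (0.62), another tensin. Among 9 membrane partners past the floor 3 were higher and 6 lower in No.8, none by 2-fold, with the tetraspanins Cd9 (-0.56) and Cd82 (-0.51) and the integrin-associated Cd47 (-0.44) differing most.

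On the cadherin side, 7 catenin genes were past the floor, 3 higher and 4 lower in No.8. None of these few genes was 2-fold apart, and 2.91% of all genes past the floor were 2-fold higher and 2.57% lower. Ctnnb1, beta-catenin, which binds cadherin tails and also acts in Wnt signalling, had a level of 10.30 in No.8 and 9.41 in No.4 and was 1.86-fold higher in No.8. Ctnna3 (0.62) and Ctnna1 (-0.28), alpha-catenins, which link beta-catenin to actin, were next. Of the desmosome genes, the plakophilins Pkp2 (7.58 in No.8 and 7.85 in No.4) and Pkp1 (4.81 and 4.38) were past the floor.

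Other genes of the cadherin superfamily differed in both directions. Of 12 past the floor, 3 were lower and 1 higher in No.8 by 2-fold, beside 2.57% and 2.91% of all genes past the floor, and the 1 higher gene did not reach 2-fold counted from 5.67. Pcdh9, a brain protocadherin, was at 4.99 in No.8 and 6.87 in No.4. Fat4, a giant planar polarity cadherin, was at 4.96 in No.8 and 6.73 in No.4, and Pcdh18 at 6.59 in No.8 and 7.73 in No.4. Counted from 5.67, Pcdh9 was 2.29-fold, Fat4 2.08-fold and Pcdh18 2.20-fold lower in No.8. Cdhr5, a microvillar cadherin of intestine and kidney, was at 6.50 in No.8 and below the floor at 3.84 in No.4, at least 4.50-fold higher counted from the floor and 1.77-fold counted from 5.67.

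Transcription factors that repress E-cadherin were split. Zeb2 was at 9.02 in No.8 and 8.21 in No.4 (0.81) and Zeb1 at 8.01 and 8.69 (-0.68), while Twist1 (-0.24) was near the floor. Of 8 genes of cadherin cleavage past the floor, 4 were higher and 4 lower, none by 2-fold, beside 2.91% higher and 2.57% lower by 2-fold among all genes past it. Mmp14, a membrane metalloprotease, was at 6.75 in No.8 and 5.85 in No.4, Psen2 was at 4.41 and 3.76, and Adam15 differed by -0.60.

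**Figure D4:**
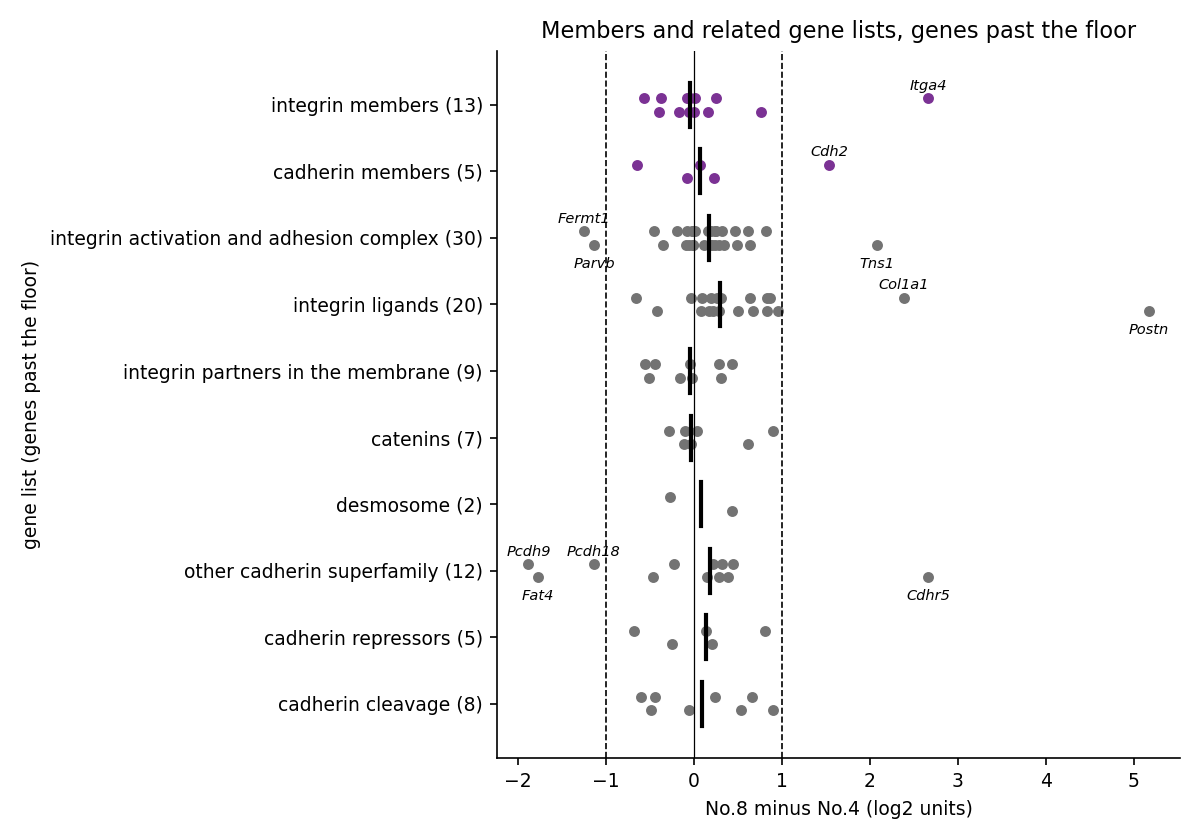
Difference, No.8 minus No.4 (horizontal axis, log2 units), of each gene past the floor in the integrin and cadherin families (purple) and in 8 related gene lists (grey), with the number of genes in brackets, a black bar at the median and dashed lines at 2-fold. Genes at least 2-fold apart are named; of the lists drawn, the ligand list has the highest median (0.30), the list of other integrin subunits is not drawn because 1 gene of it was past the floor, and the named genes of the cadherin superfamily lie on both sides.

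Markers of other cell types that use these receptors were measured beside Itga4 and Cdh2. Of 8 leukocyte markers, Cd68 was past the floor (4.07 in No.8 and 4.62 in No.4), and Ptprc, the pan-leukocyte gene, was at 2.71 in No.8 and 3.45 in No.4. Of 7 fibroblast markers 4 were past the floor in each colony, and of these Col3a1 and Thy1 had both levels under 5.67. The 7 log2 levels summed to 38.8 in No.8 and 36.1 in No.4. That sum measures no share of cells, and Col1a1 alone gave 2.38 of the gap. Col1a1 was 5.22-fold higher in No.8, Pdgfra was at 9.53 in No.8 and 10.24 in No.4, and Dcn, Lum and Fap were below the floor in both. The part of such markers in the Itga4 and Cdh2 differences was not tested. Of 6 endothelial markers measured 3 were past the floor, in different directions. Tek was at 5.97 in No.8 and 4.84 in No.4, which is 1.23-fold higher counted from 5.67, Flt1 was at 6.70 in No.8 and 7.44 in No.4 (-0.74), and Esam was at 5.01 and 4.82. The endothelial genes Cdh5, Vwf and Emcn were below the floor in both. Of 8 epithelial markers, Epcam alone was past the floor, at 6.19 in No.8 and 7.30 in No.4. The member Cdh1, which is not in that list, was below the floor in both colonies. Of 5 platelet markers 3 were past the floor in at least 1 colony, none above 5.67.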

How the data were processed

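Both colonies of the C6 line were measured on 1 biotin-labelled whole-transcript array each, per the labels' protocols. The deposited table holds 1 log2 value per feature for 36685 features. How the authors corrected background, normalized and summarized probes: not given in the sources used here. Base 2 is inferred from values reaching 13.3, above the largest natural log of a 16-bit signal (11.1). Quartiles were nearly equal (3.16, 4.31 and 6.37 in No.8 and 3.17, 4.34 and 6.37 in No.4), so values were compared as deposited. Genes were named through the platform annotation: 18511 features had 1 symbol, 575 several and 17599 none. The brightest feature stood for each symbol. All 40 member symbols matched a RefSeq table (GRCr8), which also gave gene order; promoter sequences are RefSeq's. The genome build behind the array's annotation is unknown here.

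Differences, floors, folds and counts were computed in Python 3.11.15 with NumPy 2.4.6, pandas 2.3.3 and statsmodels 0.14.6. Folds of genes below the floor are bounds counted from it. The number of arrays limits precision, and no test was made. The genes were all members by the symbol rule, and from each related list those past the floor at least 2-fold apart and the 3 next largest. All measured cell type markers were counted, and some of them are named. A few ligands were added after their values were seen, as stated beside them. Members, lists, floors and naming rules were chosen with earlier results of these data known, and the grouping of members by ligand or type after their values were seen. Alternatives were other scalings, floors, offsets, features per gene and fold sizes.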

Additional observations from a re-analysis of the deposited data

How the results depend on the processing

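Itga4 and Cdh2 were at least 2-fold higher in No.8 under centring, quantile normalization, loess and an offset of 64. Under the offset Itga4 was at 1.60 (log2). With levels raised to 5.67, Itga4 stayed at least 2-fold higher. That step could not change Cdh2, and raising levels to the floor could change neither gene, because their levels lay above. Other features per gene could change no member, because each had 1 feature. Itga8, at 0.76, was at 0.28 under the offset and at 0 with levels raised to 5.67. Integrins at least 2-fold higher in No.8 numbered 1, and 2 with the floor at the 25th percentile, with no floor (Itga2 joins in both) or at 1.5-fold. Cadherins numbered 1 higher, 0 at 4-fold, and 0 lower, 1 at 1.5-fold. The integrin median was -0.04 (mean 0.17), and it was 0.06 with no floor, so its sign is not settled. The cadherin median was 0.07 (mean 0.22) and 0.44 with the floor at the 75th percentile or at 5.67, where 2 genes are left. Pairs past the floor numbered 9 in No.8 and 10 in No.4, 16 and 15 with the floor at the 25th percentile, and 6 and 5 at the 75th percentile or 5.67. They numbered 10 and 10 under quantile normalization, and 8 and 8 with the floor at the 95th percentile of olfactory receptor genes. Which colony had more pairs therefore depended on the setting. Of 144 recomputed differences of the 18 members past the floor, 4 changed sign, all of genes differing by 0.017 or less. Only centring, quantile normalization and loess could change a sign. The values from the other settings are part of the 144 but could not. No paired analysis was possible because each colony has 1 array, and no array could be left out. Without detection calls, levels near the floor cannot be told from background.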
